A study of Mus musculus with 48 samples.

Results

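Vitamin C (Vc) on top of AM580 was examined at 48 h, in 4 of the 48 samples of the series. The members are 2 libraries of V580_48h, cells given both Vc and AM580, and 2 libraries of AM580_48h, cells given AM580 alone. They were chosen by their labels and no measured value took part in the choice. All 4 libraries carry AM580, so the groups differ by Vc. The cells were female mouse embryonic stem cells (ESCs) of strain C57BL/6, at the start of an induction towards gonadal somatic cell-like cells (GSCLCs). The other groups of the same experiment entered the fit with 2 libraries each: untreated cells (Con) and cells given Vc alone at 24 h and at 48 h, and AM580_24h and V580_24h. The study's text describes the control as cells at the start of the induction, whereas the labels give Con at 24 h and at 48 h. The labels were followed here, so in comparisons with Con the time in culture is only as certain as these labels. The labels give no doses. The ESCs had been kept on inactivated mouse embryonic fibroblasts, which were taken off by their faster adherence before the cells were seeded on fibronectin. No source says whether the 2 libraries of a group came from separate cultures, so the p-values measure only the spread between these libraries.

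Vc keeps the iron of the 2-oxoglutarate-dependent dioxygenases reduced, and so serves as a cofactor of this enzyme family. Its members include the prolyl hydroxylases that mark hypoxia-inducible factor (HIF) for destruction, the hydroxylases of collagen, the Tet enzymes that oxidize methylcytosine, and the Jumonji histone demethylases. AM580 is a synthetic agonist of retinoic acid receptor alpha. In ESCs, ligand-bound retinoic acid receptors are known to turn on Hox genes and the enzymes that clear retinoic acid, and to move the cells out of pluripotency.

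The values are fragments scaled to the length of the exons in kilobases and to the size of the library (FPKM), as the authors deposited them, for 13682 genes. The whole fragments behind these values could be recovered with exon lengths, which gave 19637000 and 18947826 fragments for the AM580_48h libraries and 20002830 and 18269073 for the V580_48h libraries. Over the 10644 genes with at least 1 FPKM in at least 2 of the 16 libraries, the root mean square difference in log2(FPKM + 1) was 0.118 between the AM580_48h replicates and 0.11 between the V580_48h replicates. Between libraries of the 2 groups it was 0.204 to 0.211. For scale, it was 0.169 to 0.184 between Vc_48h and Con_48h libraries, and 0.429 to 0.436 between AM580_48h and Con_48h libraries.

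Markers were read against the label first. The pluripotency markers Pou5f1, Sox2, Nanog, Zfp42 and Esrrb summed to 277.0 and 293.3 FPKM in AM580_48h and to 282.7 and 279.0 FPKM in V580_48h, with Pou5f1 the most abundant at a mean of 187.8 FPKM. Of 5 markers of gonadal somatic cells, Wt1 led at a mean of 13.28 FPKM. Nr5a1, a defining regulator of the gonad, had 1 and 3 fragments in AM580_48h and 2 and 2 in V580_48h. Foxl2, the regulator of granulosa cells, had 27 and 15 fragments in AM580_48h against 9 and 17 in V580_48h, which is 0.4223 and 0.2431 against 0.1382 and 0.2858 FPKM. The groups overlapped, and Foxl2 stayed below the filter and was not tested. Pluripotency markers were thus present at 48 h, and the defining gonadal markers Nr5a1, Lhx9 and Foxl2 were at or near 0. Of 4 Y-linked markers, 0 were in the table. Many genes of other lists are absent from it too, so this is not a reading of their level.

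Each gene was tested with limma on log2(FPKM + 1), and a gene counts as called where its p, adjusted by Benjamini-Hochberg (BH) over all genes, was below 0.05. With Vc on top of AM580, 2046 of the 10644 genes changed (19.2%). Of these, 906 were higher in V580_48h (8.51%) and 1140 lower (10.7%). Most changes were small. For scale, AM580 alone against Con_48h changed 6063 genes (57.0%), 344 of them at least 2-fold (3.23%). With Vc on AM580, the median absolute log2 fold change of the called genes was 0.281, and 28 genes (0.263%) changed at least 2-fold, 3 up (0.0282%) and 25 down (0.235%). Leaving out 1 library lowered the count of calls to 1129 without V580_48h replicate 1, 1197 without AM580_48h replicate 1, 1222 without V580_48h replicate 2 and 1380 without AM580_48h replicate 2. All fold changes are on the log2(FPKM + 1) scale, which understates the change of genes with low levels. None of the 2046 called genes had overlapping replicates (0), but over all genes tested the groups did not overlap in 62.1% either. Over all genes the median log2 fold change was 0.00165. On simulated libraries of this design, 97% of 100 genes moved by 0.5 on the log2 scale and 100% of 100 genes moved by 1 were recovered, with 10 false calls. The moved genes were drawn from those with a mean of at least 5 FPKM, so the recovery does not speak for lower genes. The noise was normal and independent between genes and libraries, and far fewer genes were moved than the 19.2% called here.

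**Figure D1:**
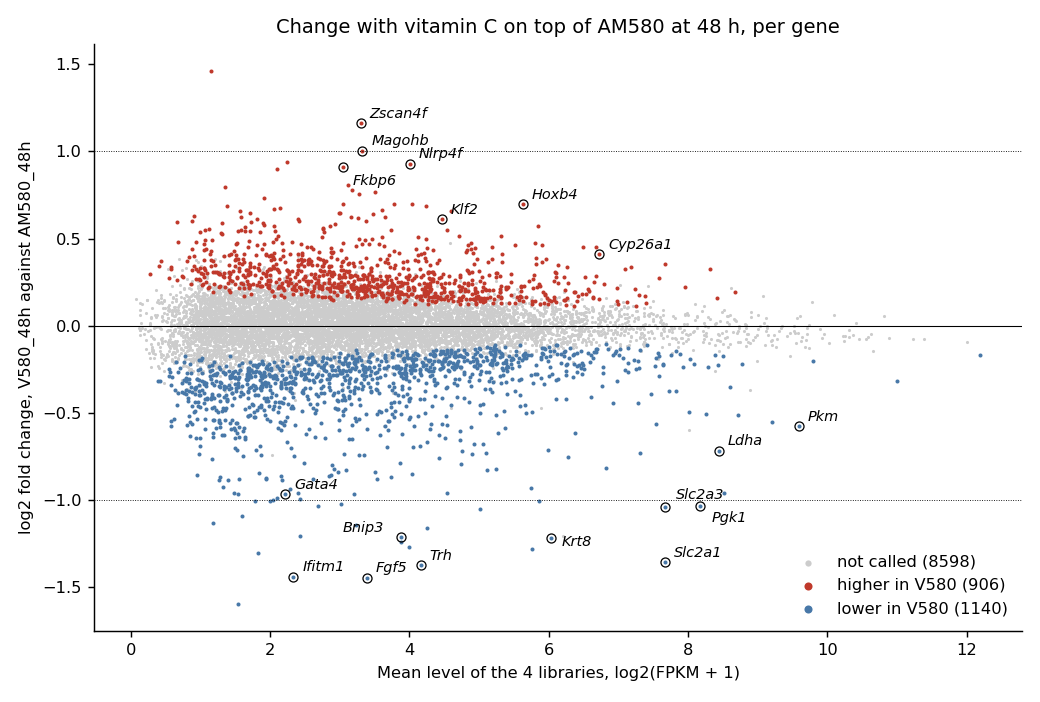
Log2 fold change of V580_48h against AM580_48h for each of the 10644 genes tested (vertical axis, on the log2(FPKM + 1) scale) against its mean level in the 4 libraries (horizontal axis, log2(FPKM + 1)). Red points are the 906 genes called higher, blue points the 1140 called lower and grey points those not called, the dotted lines mark a 2-fold change, and most of the points past those lines lie on the lower side.

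The largest falls held genes of glucose uptake and of the response to low oxygen. Slc2a1, the glucose transporter GLUT1 (chr4:119108711-119137983, plus strand, mm10), was at 324.1 and 324.1 FPKM in AM580_48h and at 122.9 and 129.3 FPKM in V580_48h. Both V580_48h libraries lay far below both AM580_48h libraries, and the log2 fold change was -1.36 (SE 0.0386, limma adjusted p = 2.93e-11). Ddit4, an inhibitor of mTOR signalling (chr10:59949669-59951834, minus strand), fell from 83.83 and 82.88 FPKM to 31.62 and 35.99 FPKM. P4ha1, the catalytic subunit of collagen prolyl hydroxylase (chr10:59323296-59373304, plus strand), fell from 22.45 and 20.72 FPKM to 8.652 and 8.489 FPKM. Bnip3, a receptor that leads mitochondria into autophagy (chr7:138890836-138909519, minus strand), fell from 21.11 and 21.53 FPKM to 9.579 and 7.757 FPKM. The log2 fold changes of these genes were -1.28, -1.24 and -1.21, and none of them had overlapping groups.

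Known targets of HIF fell more often than they rose. Of 27 listed, 26 passed the filter on low values, 18 fell and 0 rose, against 10.7% of all genes called lower and 8.51% called higher. Without V580_48h replicate 1, 16 fell and 1 rose. For the lists that follow, a share in parentheses after a count is that of all genes called in the same direction. The median log2 fold change of the 26 was -0.402, against 0.00165 over all genes. Egln3, a prolyl hydroxylase that acts on HIF and is itself a HIF target, fell from 11.44 and 11.6 FPKM to 6.611 and 6.354 FPKM (log2 fold change -0.74, SE 0.0477, limma adjusted p = 1.18e-07). Its relative Egln1 fell by less, from 14.23 and 14.17 FPKM to 11.25 and 10.97 FPKM. Ankrd37, Ndrg1 and Vegfa, the gene of the vascular growth factor, were also among those that fell. Of the 8 targets not called, Pdk1, the kinase that holds back pyruvate dehydrogenase, was at 12.39 and 13.23 FPKM in AM580_48h and 12.61 and 11.62 FPKM in V580_48h. Car9, a carbonic anhydrase, was at 1.746 and 1.581 FPKM against 2.126 and 1.972 FPKM, on the higher side in V580_48h without passing the test (limma adjusted p = 0.122).

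Glycolytic enzymes fell too, and their list shares Slc2a1, Pgk1, Pfkl, Eno1 and Ldha with the HIF targets. Of 21 genes of glycolysis tested, 13 fell (all genes, 10.7%) and 1 rose (8.51%), and their median log2 fold change was -0.351. Slc2a3, the high-affinity glucose transporter GLUT3, was at 303.3 and 281.0 FPKM in AM580_48h and 138.8 and 144.6 FPKM in V580_48h (log2 fold change -1.04, SE 0.0431, limma adjusted p = 1.86e-09). Slc16a3, which carries lactate out of the cell, fell from 43.89 and 47.48 FPKM to 20.7 and 22.35 FPKM. Pgk1, an X-linked kinase that makes ATP within glycolysis (chrX:106187100-106203699), fell from 416.9 and 409.9 FPKM to 203.5 and 199.9 FPKM, and Pfkl, the liver-type phosphofructokinase, from 72.65 and 74.01 FPKM to 37.43 and 38.44 FPKM. Ldha and Pkm fell by smaller amounts, Ldha from 446.0 and 446.5 FPKM to 271.2 and 271.0 FPKM and Pkm from 931.1 and 954.0 FPKM to 626.6 and 636.1 FPKM. Pfkm, the muscle-type phosphofructokinase, was the member that rose, from 18.39 and 19.81 FPKM to 23.9 and 23.44 FPKM (log2 fold change 0.30), and its call was lost without AM580_48h replicate 1. Gapdh was read as 72.07 and 3.627 FPKM in AM580_48h and 76.14 and 2.874 FPKM in V580_48h. The split followed the replicate number in both groups. Replicate 1 had 5849 fragments in AM580_48h and 6295 in V580_48h, and replicate 2 had 284 and 217. A spread of that size between replicates leaves this gene uncertain, and its cause was not tested.

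**Figure D2:**
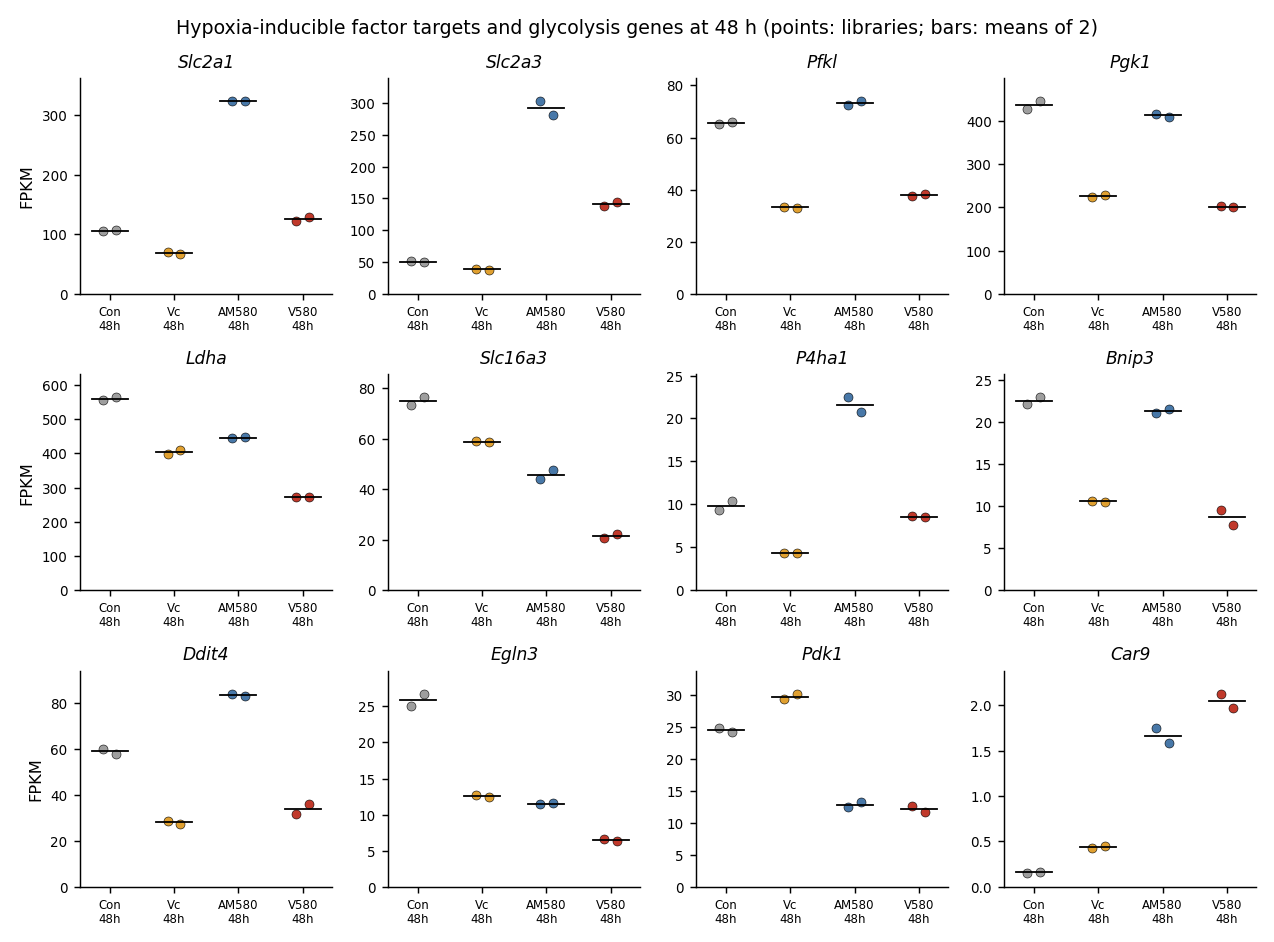
FPKM of 12 HIF targets and glycolysis genes in each library of the 4 groups at 48 h (points are libraries, bars the mean of 2, each vertical axis starting at 0). In Slc2a1, Slc2a3, Pfkl, Pgk1, Ldha, Slc16a3, P4ha1, Bnip3, Ddit4 and Egln3 both V580_48h points lie below both AM580_48h points, whereas Pdk1 overlaps and Car9 lies slightly higher.

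Promoters were read because the HIF targets moved together. The core that HIF binds in DNA has the form ACGTG or GCGTG, of which the former alone was searched here, and the RefSeq promoter table of GRCm38.p6 (the same assembly as mm10) gives 250 bases before and 50 bases after each start site. The windows of Slc2a1, Ddit4 and P4ha1 are shown as the HIF targets with the largest falls, a choice made after their values were seen. The capitals mark ACGTG, or CACGT where the match is on the other strand. GCGTG is not marked, though the windows of Ddit4 and P4ha1 hold it, and that of Slc2a1 on the other strand. The match begins at position -36 from the start site in Slc2a1 (chr4:119108495-119108794, plus strand), at -187 in Ddit4 (chr10:59951721-59952020, minus strand) and at -16 in P4ha1 (chr10:59323046-59323345, plus strand).
Slc2a1: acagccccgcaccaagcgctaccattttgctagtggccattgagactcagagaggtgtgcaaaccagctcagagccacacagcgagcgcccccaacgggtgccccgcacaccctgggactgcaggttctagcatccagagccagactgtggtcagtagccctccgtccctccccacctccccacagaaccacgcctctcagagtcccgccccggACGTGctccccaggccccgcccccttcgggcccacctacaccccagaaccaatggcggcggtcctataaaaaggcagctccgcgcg
Ddit4: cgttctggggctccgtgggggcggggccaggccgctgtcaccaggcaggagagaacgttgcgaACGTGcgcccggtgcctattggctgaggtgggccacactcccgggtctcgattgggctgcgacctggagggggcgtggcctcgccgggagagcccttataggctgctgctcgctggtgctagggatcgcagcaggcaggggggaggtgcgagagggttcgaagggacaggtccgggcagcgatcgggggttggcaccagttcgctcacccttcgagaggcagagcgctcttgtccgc
P4ha1: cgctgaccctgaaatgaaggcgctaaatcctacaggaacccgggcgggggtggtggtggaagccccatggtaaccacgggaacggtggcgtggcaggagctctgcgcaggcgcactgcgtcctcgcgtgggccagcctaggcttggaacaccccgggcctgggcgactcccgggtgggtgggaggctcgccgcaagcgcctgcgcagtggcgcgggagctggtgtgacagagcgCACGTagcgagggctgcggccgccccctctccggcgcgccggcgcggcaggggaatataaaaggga

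Of the 23 tested HIF targets with a window in the table, 14 held ACGTG on either strand (60.9%), against 26.8% of the 8472 tested genes with a window and 19.7% of all 27025 windows. It was in 11 of 16 HIF targets that fell and in 3 of 7 that were not called. Over all genes the letters were in 25.4% of the windows of genes called lower, 27.3% of those called higher and 26.9% of those not called, and in 7 of 18 windows of genes that fell at least 2-fold (38.9%), HIF targets included. The list was made of genes already known as HIF targets, so its share of windows with this core does not bear on Vc. A match of 5 letters is a description of the window and not a site.

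Besides the oxygen sensors, genes of Vc uptake and of the other hydroxylases were looked at. Slc23a1, the sodium-dependent transporter of Vc, rose from 1.919 and 1.76 FPKM to 3.597 and 3.11 FPKM (log2 fold change 0.61, SE 0.0853, limma adjusted p = 0.000163). The related Slc23a2 was at 5.047 and 4.985 FPKM against 4.785 and 4.888 FPKM and did not pass the test (limma adjusted p = 0.741). The glucose transporters Slc2a1 and Slc2a3, which also carry oxidized Vc, belong to the same list and fell as given above. Of its 22 tested genes, 8 fell (all genes, 10.7%) and 1 rose (8.51%), at a median log2 fold change of -0.122, or -0.0729 without V580_48h replicate 2. Plod2, a lysyl hydroxylase of collagen, fell from 15.91 and 15.05 FPKM to 10.49 and 10.47 FPKM (log2 fold change -0.52, limma adjusted p = 4.81e-05). Egln2, Hif1an, Plod1, Plod3, Fto and Alkbh5 were tested and not called.

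Of 11 genes of DNA methylation tested, 1 rose and 2 fell, a share near the 19.2% called over all genes (the rise was lost without V580_48h replicate 2), and the Tet genes and the methyltransferases Dnmt1, Dnmt3a and Dnmt3b were not called. Tet1 was at 7.805 and 7.46 FPKM in AM580_48h and 10.65 and 9.197 FPKM in V580_48h, with both V580_48h libraries above both others (log2 fold change 0.34, SE 0.155, limma adjusted p = 0.147). Its call was made in 2 of 15 settings, those fitted on the 4 libraries or on the 8 libraries of 48 h. Tet2 and Tet3 had log2 fold changes of 0.07 and 0.02. Dnmt3l, the catalytically inactive partner of the de novo methyltransferases, fell from 298.3 and 316.5 FPKM to 217.0 and 218.9 FPKM (log2 fold change -0.49, SE 0.0603, limma adjusted p = 4.94e-05). Trim28, the corepressor that zinc-finger proteins bring to retroelements, fell by 0.22 on the log2 scale. Among 17 histone demethylases tested, Kdm4c, Kdm3a, Kdm4b and Kdm2b fell and Kdm8 rose, against 10.7% called lower and 8.51% called higher over all genes. Kdm4c went from 22.76 and 22.6 FPKM to 17.09 and 16.77 FPKM, and Kdm3a, another HIF target, from 8.575 and 9.086 FPKM to 7.02 and 6.395 FPKM.

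Genes of early endoderm were lower with Vc, and this was the list with the largest share of falls among those of 10 or more tested genes. Of 18 genes tested, 16 fell (all genes, 10.7%) and 0 rose (8.51%), at a median log2 fold change of -0.496. Gata4, a zinc-finger regulator of endoderm, heart and gonad (chr14:63198922-63271692, minus strand), was at 5.322 and 5.718 FPKM in AM580_48h and 2.651 and 2.047 FPKM in V580_48h. In Con_48h it was at 0.8633 and 0.7422 FPKM and in Vc_48h at 0.368 and 0.1179 FPKM, so the AM580_48h libraries were the highest of the 48 h groups. The log2 fold change of Gata4 with Vc on top of AM580 was -0.97 (SE 0.102, limma adjusted p = 1.41e-05). Krt8 (chr15:101996698-102004482, minus strand) and Krt18 (chr15:102028180-102032027, plus strand), which encode the paired keratins of simple epithelia, fell from 101.4 and 95.71 FPKM to 40.09 and 43.44 FPKM and from 81.33 and 81.72 FPKM to 41.19 and 39.08 FPKM. Foxa2, a pioneer factor of definitive endoderm, was at 1.612 and 1.603 FPKM against 0.5695 and 0.3233 FPKM. Cubn and Amn, which form an uptake receptor of visceral endoderm, the transcription factors Gata6, Sox17 and Sox7, and the adaptor Dab2 fell as well. Lamc1 and Thbd were the members not called. Foxa2 and Sox17 were among the members that reached 1 FPKM in the AM580_48h libraries alone, so they passed the filter through the group where they were high and their place in the count was given by it. Without the 3 such members, 13 of 15 fell, a count added after seeing the data. In bulk RNA, fewer cells of a type and less RNA per cell cannot be told apart.

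Of 5 markers of extraembryonic endoderm, 4 were tested and called lower (all genes, 10.7%), among them Sox17, whose fall the filter had given. The 5 summed to 12.59 and 12.4 FPKM in AM580_48h and to 8.244 and 7.222 FPKM in V580_48h, with Dab2 the most abundant. With a filter of 5 FPKM the count of endoderm genes that fell was 9 of 11. Genes of the basement membrane, which endoderm secretes, fell in 6 of 11 cases (all genes, 10.7%), among them Lama1, from 5.429 and 5.773 FPKM to 3.289 and 2.607 FPKM. Fewer basement membrane genes were called whichever library was left out, at medians of -0.183 to -0.14. Sparc fell from 111.7 and 111.8 FPKM to 84.37 and 83.25 FPKM. Col4a1 and Col4a2, the chains of its collagen network, fell by 0.44 and 0.42 on the log2 scale. Of 10 genes of gonadal somatic cells tested, Gata4, Irx3, Fst and Cd63 fell (all genes, 10.7%) and Wt1 and Bgn rose (8.51%). Another member, Wnt4, passed the filter through the AM580_48h libraries alone and was not called. Irx3 went from 4.702 and 4.643 FPKM to 1.846 and 1.803 FPKM, and Wt1 from 12.16 and 12.47 FPKM to 14.3 and 14.18 FPKM. The call of Cd63 was lost without AM580_48h replicate 2 and without V580_48h replicate 2. Of the 2 rises, 0 were left without AM580_48h replicate 2, without either V580_48h replicate and with no filter on low values, and 1 without AM580_48h replicate 1.

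**Figure D3:**
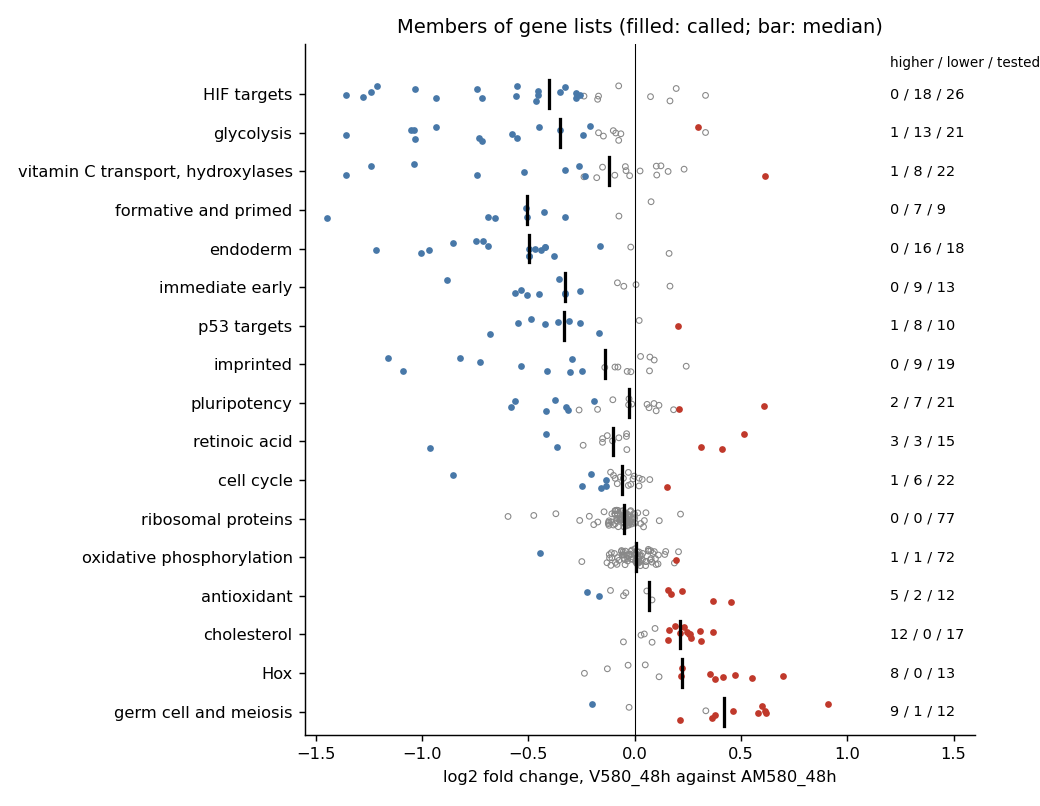
Log2 fold change of V580_48h against AM580_48h for each tested member of 17 gene lists (filled points are called at a BH adjusted p below 0.05, open points are not, black bars are medians), with the numbers called higher and lower and the number tested at the right. Endoderm, HIF target and glycolysis genes lie mostly below 0, germ cell, Hox and cholesterol genes mostly above 0, and ribosomal protein genes around 0.

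Genes of the formative and primed states of pluripotency fell in 7 of 9 cases, against 10.7% of all genes, at a median log2 fold change of -0.505. Fgf5, a growth factor of the primed epiblast (chr5:98254184-98277030, plus strand), had the largest fall among genes with a mean of at least 5 FPKM in the higher group. It was at 16.98 and 15.66 FPKM in AM580_48h and at 5.217 and 5.493 FPKM in V580_48h (log2 fold change -1.45, SE 0.088, limma adjusted p = 6.91e-08). Ifitm1, an interferon-induced membrane protein, was close to it at -1.44, going from 7.448 and 7.14 FPKM to 1.874 and 2.252 FPKM. The order depends on the pseudocount: as a ratio of mean FPKM, V580_48h over AM580_48h, Ifitm1 was at 0.283 and Fgf5 at 0.328, so Ifitm1 fell by more. Sall2, Pim2, Foxd3, Lef1, the Nodal inhibitor Lefty1 and the Nodal co-receptor Tdgf1 also fell. Lef1 was not the only member to lose its call without V580_48h replicate 2, and fewer members were also called without AM580_48h replicate 2. The median log2 fold change was -0.509 and -0.48 in these fits. Lefty1 was at 492.0 and 506.6 FPKM against 343.6 and 357.4 FPKM. Dnmt3a and Dnmt3b were the members not called. The promoter window of Fgf5 is shown as that of the largest fall on the scale of the main test (chr5:98253934-98254233, plus strand). It held no ACGTG match and 29 CG dinucleotides. The other form of the HIF core, GCGTG, is present in this window but was not searched.
Fgf5: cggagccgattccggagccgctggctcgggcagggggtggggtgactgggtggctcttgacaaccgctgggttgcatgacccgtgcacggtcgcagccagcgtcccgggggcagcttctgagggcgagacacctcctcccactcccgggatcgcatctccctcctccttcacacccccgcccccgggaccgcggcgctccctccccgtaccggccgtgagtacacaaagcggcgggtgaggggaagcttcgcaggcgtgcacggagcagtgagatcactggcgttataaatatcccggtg

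Factors of core and naive pluripotency did not move as one. Pou5f1, the gene of Oct4, was at 182.4 and 195.2 FPKM in AM580_48h and 188.6 and 185.2 FPKM in V580_48h, and the groups overlapped (log2 fold change -0.01, SE 0.0545, limma adjusted p = 0.896). Nanog (chr6:122707489-122714633, plus strand) fell from 26.05 and 25.94 FPKM to 17.39 and 17.16 FPKM (log2 fold change -0.56, SE 0.049, limma adjusted p = 1.95e-06). Klf2, a naive factor, rose from 16.29 and 17.57 FPKM to 25.66 and 27.09 FPKM (log2 fold change 0.61, SE 0.0786, limma adjusted p = 7.94e-05). Of 21 genes tested, 7 fell (all genes, 10.7%) and 2 rose (8.51%, near their own share), at a median log2 fold change of -0.0284 that ranged from -0.117 without V580_48h replicate 1 to -0.000603 without V580_48h replicate 2. Fgf4, Gbx2, Lin28a, Dppa5a, Tbx3 and Esrrb joined Nanog among the falls, and Sox2, from 37.04 and 38.56 FPKM to 43.48 and 44.15 FPKM, joined Klf2.

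The retinoic acid pathway held members in both directions, 3 higher (all genes, 8.51%) and 3 lower (10.7%) of 15 tested, with 1 higher at a pseudocount of 0.1. Rara, the receptor that AM580 binds, was at 14.01 and 15.17 FPKM against 14.14 and 12.88 FPKM, with overlapping groups. Rarb and Rarg were not called (limma adjusted p = 0.164 and 0.624). Among the genes that handle the ligand, Crabp2, which carries retinoic acid to the nucleus, fell from 31.05 and 31.9 FPKM to 15.84 and 15.53 FPKM (log2 fold change -0.96, SE 0.0939, limma adjusted p = 6.12e-06). Cyp26a1, the enzyme that breaks down retinoic acid (chr19:37697798-37701536, plus strand), rose from 87.4 and 93.88 FPKM to 118.5 and 122.8 FPKM (log2 fold change 0.41, SE 0.0903, limma adjusted p = 0.00546). Its call was lost without AM580_48h replicate 1, at a log2 fold change of 0.36, and with a pseudocount of 0.1.

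Hox genes, which give cells their position along the body axis, rose in 8 of 13 cases (all genes, 8.51%) and fell in 0. Hoxb4 (chr11:96318267-96321638, plus strand) went from 38.66 and 37.04 FPKM to 57.44 and 66.85 FPKM (log2 fold change 0.70, SE 0.0857, limma adjusted p = 5.23e-05). Hoxb8 (chr11:96281905-96285315, plus strand) went from 18.19 and 18.39 FPKM to 25.94 and 28.67 FPKM. In both genes the Con_48h and Vc_48h libraries were below 1 FPKM. Hoxb3, Hoxb5, Hoxb6, Hoxb7, Hoxb9 and Hoxa3 were the others that rose, and the 5 members of the Hoxc cluster tested were not called. The count of 8 was 3 without AM580_48h replicate 1, 3 without AM580_48h replicate 2 (where 1 member was called lower), 2 without V580_48h replicate 2 and 2 with a pseudocount of 0.1. Of the lower members, Hoxd9 and Hoxc9 did not pass the filter, with 53 and 37 fragments against 21 and 12 for Hoxd9 and 39 and 49 against 16 and 20 for Hoxc9. The counting of these libraries is not stated to use strand, so reads of Hox genes and of the antisense transcripts that overlap them cannot be told apart.

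Genes of germ cells and meiosis rose in 9 of 12 cases (all genes, 8.51%), and 1 fell (10.7%). The median log2 fold change was 0.421. Fewer rises were called whichever library was left out, at medians of 0.43 to 0.465. Dazl, an RNA-binding protein that licenses germ cells, went from 3.226 and 3.33 FPKM to 5.955 and 5.158 FPKM (log2 fold change 0.61, SE 0.0675, limma adjusted p = 1.94e-05). Fkbp6, which acts in the piRNA pathway (chr5:135291704-135350044, minus strand), went from 5.055 and 5.028 FPKM to 9.953 and 10.74 FPKM. Piwil2, a piRNA-binding protein, went from 7.224 and 6.379 FPKM to 10.87 and 11 FPKM. The cohesin subunits of meiosis Stag3 and Smc1b rose as well, Stag3 from 1.972 and 2.191 FPKM to 3.776 and 3.428 FPKM. Tex19.1, Dmc1, Gpat2 and Tdrd1 completed the rises. Ddx4, the gene of Vasa, was the member called lower, at 11.98 and 13.17 FPKM against 11.35 and 10.24 FPKM, and its call was lost without AM580_48h replicate 2 and without V580_48h replicate 2. Of 35 listed genes, 15 were in the table and 12 were tested, so the count does not speak for the whole list.

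The 3 genes that rose at least 2-fold were Zscan4f, Magohb and Mep1b. Mep1b, a subunit of the protease meprin, was at 0.3341 and 0.3463 FPKM in AM580_48h and 2.734 and 2.658 FPKM in V580_48h, and it was named after its values were seen. The largest rise among genes with a mean of at least 5 FPKM in the higher group was that of Zscan4f, a gene of the 2-cell embryo that a small share of ESCs expresses at a time (chr7:11397915-11402318, plus strand). It was at 5.823 and 5.361 FPKM in AM580_48h and at 12.12 and 15.54 FPKM in V580_48h (log2 fold change 1.16, SE 0.149, limma adjusted p = 7.82e-05). Zscan4b rose from 6.132 and 4.92 FPKM to 9.322 and 9.811 FPKM. The Zscan4 copies are near-identical and can share reads, so the values of single copies are uncertain. Nlrp4f, a gene of the oocyte and early embryo, went from 10.43 and 10.86 FPKM to 21.99 and 20.37 FPKM. Zfp809, a zinc-finger repressor of proviruses, went from 11.75 and 12.09 FPKM to 20.22 and 19.75 FPKM. The window of Zscan4f is shown as that of the largest rise (chr7:11397665-11397964, plus strand). It held no ACGTG match and 3 CG dinucleotides, against a median of 22 over the tested genes.
Zscan4f: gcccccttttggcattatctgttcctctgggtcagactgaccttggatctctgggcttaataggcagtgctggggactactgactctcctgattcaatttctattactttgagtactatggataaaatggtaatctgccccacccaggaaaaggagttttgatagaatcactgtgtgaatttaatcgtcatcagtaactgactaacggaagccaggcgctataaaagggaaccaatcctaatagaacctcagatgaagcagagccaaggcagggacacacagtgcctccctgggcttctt

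Imprinted genes fell in 9 of 19 cases (all genes, 10.7%) and rose in 0 (8.51%), at a median log2 fold change of -0.141. The median was -0.0524 without AM580_48h replicate 1, -0.0918 without V580_48h replicate 1, -0.243 and -0.247 without replicate 2 of either group, and -0.324 with a pseudocount of 0.1. Cdkn1c, a maternally expressed inhibitor of cyclin-dependent kinases (chr7:143458339-143461050, minus strand), went from 28.22 and 26.63 FPKM to 11.52 and 11.92 FPKM (log2 fold change -1.16, SE 0.127, limma adjusted p = 1.8e-05). Peg3, a paternally expressed zinc-finger gene (chr7:6703892-6730431, minus strand), went from 52.06 and 46.78 FPKM to 27.16 and 27.91 FPKM, and Snrpn from 43.21 and 42.75 FPKM to 25.86 and 25.28 FPKM. Igf2, a growth factor, was at 3.764 and 3.089 FPKM against 1.136 and 1.014 FPKM. Mest, Peg10, Grb10 and Igf2r were not called. The genes that fell included both maternally and paternally expressed ones. Fewer imprinted genes were called whichever library was left out.

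Genes of cholesterol synthesis rose by small amounts in 12 of 17 cases (all genes, 8.51%) and fell in 0, at a median log2 fold change of 0.215. Insig1, which holds the pathway's regulator in the endoplasmic reticulum, went from 34.05 and 34.52 FPKM to 43.58 and 45.5 FPKM (log2 fold change 0.37, SE 0.0466, limma adjusted p = 6.95e-05). Hmgcs1 went from 47.35 and 47.11 FPKM to 56.41 and 56.97 FPKM. The count was 6 without AM580_48h replicate 2 and 6 without V580_48h replicate 2. Targets of p53 fell in 8 of 10 cases (all genes, 10.7%), led by Cdkn1a, the cell cycle inhibitor p21, from 38.34 and 36.57 FPKM to 23.33 and 22.72 FPKM, and 1 rose, Aen, whose call was lost without AM580_48h replicate 1 and without V580_48h replicate 1. Immediate early genes fell in 9 of 13 cases, against the same share, and Fos went from 4.157 and 4.263 FPKM to 1.913 and 1.745 FPKM. In these lists of p53 targets and immediate early genes, fewer falls were called whichever library was left out. Their medians were then -0.377 to -0.288 for p53 targets and -0.364 to -0.295 for immediate early genes.

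Of 77 ribosomal protein genes, 0 were called, at a median log2 fold change of -0.0495 (-0.101 without AM580_48h replicate 1 and -0.00784 without AM580_48h replicate 2), and fits on the 4 libraries or on the 8 libraries of 48 h called 5 and 7 of them lower. Of 72 genes of oxidative phosphorylation, 1 rose and 1 fell, well below the 19.2% called over all genes. The call of that rise was lost without replicate 1 of either group. Of 22 cell cycle genes, 6 fell and 1 rose, against 10.7% and 8.51% over all genes. The falls were 4 without AM580_48h replicate 2 and without either V580_48h replicate, and the rise was lost without either AM580_48h replicate and without V580_48h replicate 2. Among them Ccnd2, a D-type cyclin, went from 9.385 and 8.369 FPKM to 4.453 and 4.45 FPKM. Markers of feeder fibroblasts were read because the ESCs had been kept on such cells. The 8 markers summed to 28.34 and 26.2 FPKM in AM580_48h and to 35.96 and 33.8 FPKM in V580_48h, with Col1a1 the most abundant at a mean of 18.72 FPKM. Of 13 genes of a longer fibroblast list, 3 rose (all genes, 8.51%) and 2 fell (10.7%). The calls of these falls were lost without AM580_48h replicate 1 and without either V580_48h replicate. Col1a1 went from 16.92 and 15.79 FPKM to 21.18 and 20.98 FPKM. Lum, a defining marker of fibroblasts, had 1 to 4 fragments a library and Fap 1 to 7. The part of feeder cells in the results was not tested.

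The same addition of Vc without AM580 was set beside these changes, since Vc_48h and Con_48h share no library with the main groups. Without AM580, 1324 genes changed (12.4%), 678 higher (6.37%) and 646 lower (6.07%), and 5 changed at least 2-fold (0.047%). Of the 906 genes called higher with Vc on top of AM580, 305 were also higher with Vc alone, which is 33.7% of the 906 and 45.0% of the 678, and 6 were lower. Of the 1140 called lower, 362 were also lower with Vc alone, which is 31.8% of the 1140 and 56.0% of the 646, and 33 were higher. Across the 10644 genes the log2 fold changes had a Pearson correlation of 0.531 and a Spearman correlation of 0.51, given as a description over genes that are not independent.

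A test of the difference between the 2 effects called 384 genes (3.61%), 113 with a higher (1.06%) and 271 with a lower effect (2.55%) in the presence of AM580, and in 13 the effects differed at least 2-fold (0.122%). With a pseudocount of 0.1 this test called 295 genes. On the log2(FPKM + 1) scale a gene with low levels in 1 setting shows little change there, so part of a difference can come from the scale. Of the 26 HIF targets, 17 fell (all genes, 6.07%) and 2 rose (6.37%, near their own share) with Vc alone, at a median log2 fold change of -0.289. The test of the difference called 4 of them (all genes, 3.61%), Slc2a1, Ldha and Pdk1 with a lower and Ak4 with a higher effect in the presence of AM580. P4ha1 fell by 1.24 on the log2 scale with AM580 and by 1.02 without it, and the difference of -0.22 did not pass (limma adjusted p = 0.347). Slc2a1 did pass, with a fall of 1.36 against one of 0.62 and a difference of -0.74 (SE 0.0546, limma adjusted p = 7.79e-06). Its FPKM was 105.7 and 106.5 in Con_48h and 70.1 and 67.73 in Vc_48h.

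Of the 18 endoderm genes, 4 fell (all genes, 6.07%) and 2 rose (6.37%) with Vc alone, at a median log2 fold change of -0.0227. In the test of the difference, 11 of 18 had a lower effect in the presence of AM580 (all genes, 2.55%) and 1, Fst, a higher one (1.06%). Without the 3 members that passed the filter through AM580_48h alone, it was 8 of 15. Members below 1 FPKM without AM580, such as Foxa2 and Gata4, have little room to fall there on the log2(FPKM + 1) scale. The counts were not corrected for this. Krt18 was at 35.74 and 37.22 FPKM in Con_48h and 35.48 and 37.4 FPKM in Vc_48h, and its difference of effects was -1.003 (limma adjusted p = 9.16e-07). For Gata4, which also fell with Vc alone, the difference of -0.42 did not pass (limma adjusted p = 0.148). Its sign depends on the pseudocount. The mean FPKM of Gata4 went from 0.8027 in Con_48h to 0.243 in Vc_48h, and from 5.52 in AM580_48h to 2.349 in V580_48h. As a ratio of means, Gata4 thus fell by more without AM580, at levels below 1 FPKM. Nanog fell with AM580 and was not called without it, with 18.08 and 17.67 FPKM in Con_48h and 19.41 and 18.25 FPKM in Vc_48h, and the difference was -0.63 (limma adjusted p = 0.000142). Cholesterol genes rose in both settings, in 10 of 17 cases without AM580 (all genes, 6.37%). In limma's test of the difference, 0 of the 17 had a lower (all genes, 2.55%) or a higher effect (1.06%). At such shares a list of 17 would hold few calls or none, so the absence of calls does not show that the effects were equal.

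**Figure D4:**
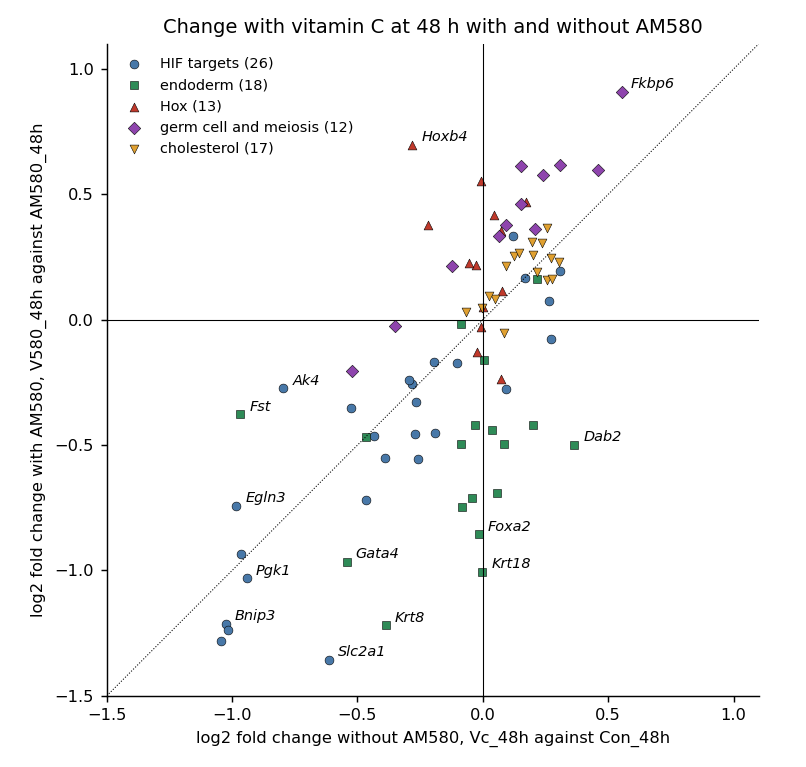
Log2 fold change with Vc at 48 h in the presence of AM580 (V580_48h against AM580_48h, vertical axis) against that without AM580 (Vc_48h against Con_48h, horizontal axis) for the tested members of 5 gene lists, both on the log2(FPKM + 1) scale, with equal changes on the dotted line. HIF targets spread along the line, whereas most endoderm genes lie below it near a horizontal value of 0 and most Hox genes above it. Genes with low levels without AM580 are drawn towards a horizontal value of 0 by this scale.

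At 24 h the same addition, V580_24h against AM580_24h, changed 1570 genes (14.8%), 792 higher (7.44%), 778 lower (7.31%) and 7 by at least 2-fold (0.0658%), again in libraries that the main comparison does not use. Of the 906 genes higher at 48 h, 289 were higher at 24 h and 28 lower, which is 31.9% of the 906 and 36.5% of the 792 for the shared direction. Of the 1140 lower at 48 h, 351 were lower at 24 h and 38 higher, which is 30.8% of the 1140 and 45.1% of the 778. A test of the difference between times called 636 genes (5.98%), 228 with a higher (2.14%) and 408 with a lower effect at 48 h (3.83%), and in 16 the effects differed at least 2-fold (0.15%). Across genes the Pearson correlation of the fold changes was 0.45 and the Spearman correlation 0.413.

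Glycolysis and HIF genes were among those with a larger fall at 48 h. Of these, 12 of 21 and 11 of 26 passed the test of time (all genes, 3.83%), and 0 passed in the other direction (2.14%). Slc2a1 was at 262.9 and 268.2 FPKM in AM580_24h and 223.4 and 222.7 FPKM in V580_24h, a fall of 0.25 against 1.36 at 48 h, and the difference was -1.10 (SE 0.0546, limma adjusted p = 3.32e-08). Bnip3 was at 12.6 and 13.22 FPKM against 12.96 and 12.7 FPKM at 24 h, with overlapping groups. Egln3 fell at both times, by 0.82 at 24 h and 0.74 at 48 h on the log2 scale, and the difference was not called (limma adjusted p = 0.609).

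Hoxb4 and Hoxb8 fell at 24 h and rose at 48 h. Hoxb4 was at 3.959 and 4.725 FPKM in AM580_24h and 2.918 and 2.721 FPKM in V580_24h, a fall of 0.48 on the log2 scale, and its difference between times was 1.18 (limma adjusted p = 4.53e-05). Of the 13 Hox genes, 7 passed the test of time, each with a higher effect at 48 h (all genes, 2.14%). Nanog rose at 24 h, from 40.41 and 42.61 FPKM to 47.11 and 50.22 FPKM, and fell at 48 h, with a difference of -0.79 (limma adjusted p = 1.25e-05). Dazl rose at both times, from 17.03 and 14.77 FPKM to 26.58 and 26.65 FPKM at 24 h. Cdkn1c fell at both, from 13.27 and 12.93 FPKM to 6.366 and 4.434 FPKM at 24 h, and its difference between times was not called (limma adjusted p = 0.996).

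**Figure D5:**
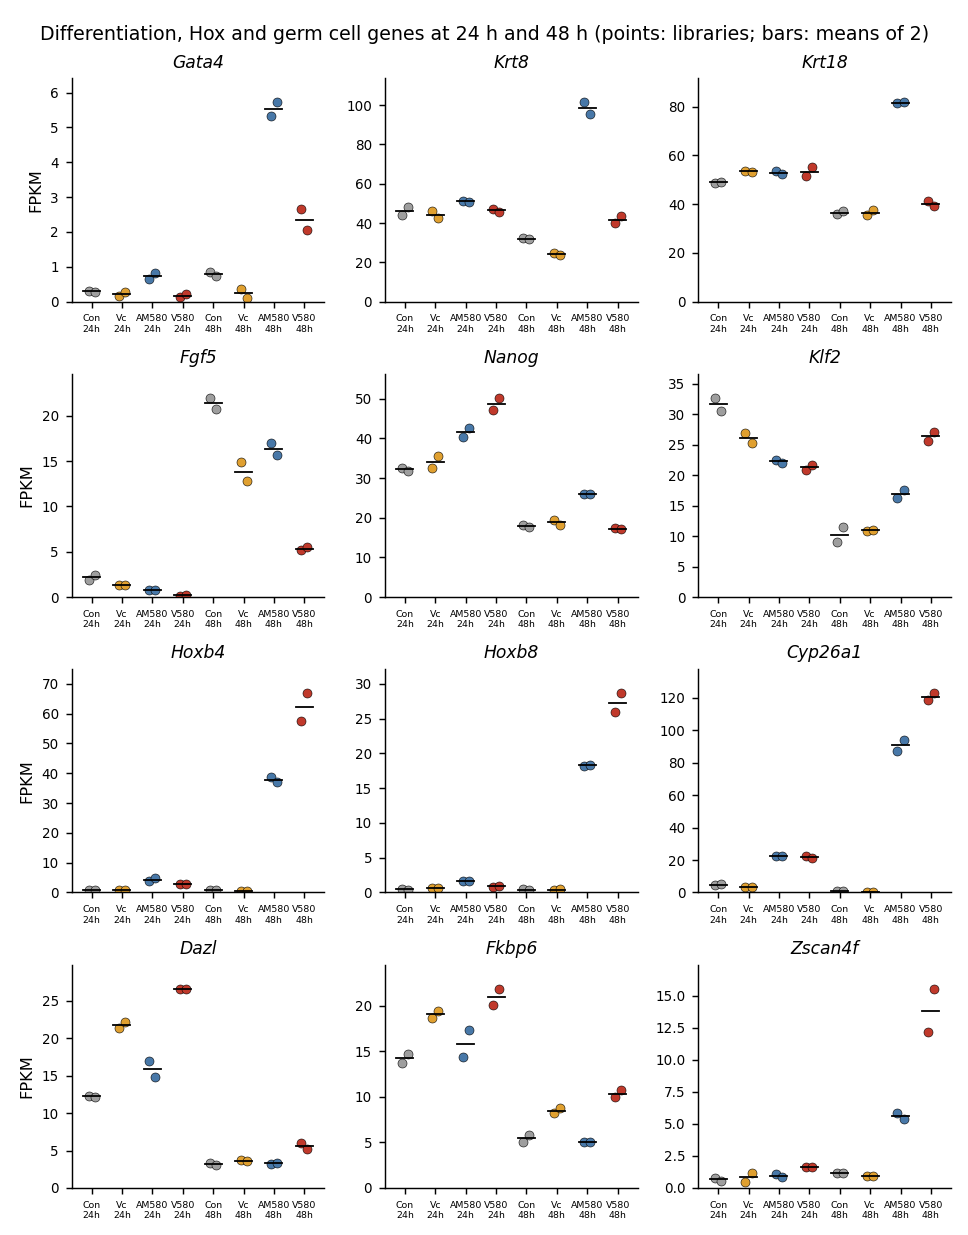
FPKM of 12 genes in each library of the 8 groups at 24 h and 48 h (points are libraries, bars the mean of 2, each vertical axis starting at 0). Gata4, Hoxb4, Hoxb8, Cyp26a1 and Zscan4f are highest in the AM580_48h and V580_48h libraries, with V580_48h lower for Gata4 and higher for the others, whereas Dazl and Fkbp6 are highest at 24 h and higher with Vc at both times in the presence of AM580.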

How the data were processed

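Poly-A RNA of the cells was sequenced as paired ends from NEBNext Ultra libraries. Alignment by the authors was to mm10 (HISAT2), with counting by featureCounts, and they deposited FPKM per gene symbol for these libraries without counts; the submitters' processing notes also name Trim Galore, FastQC, SAMtools and RSEM, with no versions, and the step that made FPKM is not given in the sources used here. The other deposited tables and libraries of the series were not used here.

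FPKM values of 16 libraries (8 groups of 2) were taken as log2(FPKM + 1), with a pseudocount of 1, for the 10644 of 13682 genes with at least 1 FPKM in at least 2 libraries. They were tested with limma 3.58.1 (limma-trend) in R 4.3.3, in one model of 8 group means without a replicate term, and BH adjusted over all genes at 0.05. Differences of effects between settings or times were contrasts of the same model. Tables and plots were made in Python 3.11.15 with pandas 2.3.3, numpy 2.4.6 and matplotlib 3.10.9. The steps were tested on simulated data.

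FPKM times exon length (GENCODE vM21, GRCm38, lengths for 99.8% of genes) and depth gave whole fragments within 0.05 for at least 96.3% of values under 200 fragments, at 16442618 to 22344429 fragments per library, and limma-voom on these fragments was added as an alternative after seeing the data. Other alternatives were the pseudocount, the filter, the libraries in the fit, the scaling, the trend, a replicate block and leaving out each library.

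Genes were named as the 12 largest called rises and falls whose higher group averaged at least 5 FPKM and whose groups did not overlap, up to 4 called members of each list (or the 2 most abundant where none was called), a fixed set (Gata4, Foxl2, Nanog, Pou5f1, the Tet, Slc23a and Rar genes) and the top 5 of each test of a difference. A few genes within the rule are not reported here. Other list members given with values, and Mep1b, were chosen after their values were seen. The members, lists and tests were chosen with earlier results of these data known. Promoter windows came from RefSeq (GRCm38.p6), with 8472 of the tested genes matched by symbol.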

Additional observations from a re-analysis of the deposited data

Results flagged for a closer look

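Of 122 named genes tested, the effect of Vc differed with and without AM580 at 48 h in 44 and between 48 h and 24 h in 52 by limma's test of the difference, against 3.61% and 5.98% of all genes. The genes were named partly for large changes and for these same tests, so both counts are in part set by the choice. Those with a difference of at least 2-fold are given here. With groups of 2 libraries, a single library that stands apart was not tested for.

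With AM580 minus without it, the log2 difference of effects was -1.095 for Trh, the precursor of thyrotropin-releasing hormone, which went from 29.69 and 26.12 FPKM to 10.11 and 10.16 FPKM with AM580. It was -1.003 for Krt18 and -1.086 for Efnb1, a ligand of Eph receptors. Efnb1 went from 31.97 and 31.69 FPKM to 20.03 and 21.12 FPKM with AM580 and from 2.536 and 2.422 FPKM to 3.705 and 4.0 FPKM without it, so the directions were opposite. In the other direction it was 1.334 for Zscan4f, 1.076 for Gm21319 and 1.058 for Arl4d, a small GTPase. Arl4d went from 25.65 and 27.08 FPKM to 30.86 and 31.65 FPKM with AM580 and from 36.73 and 41.04 FPKM to 20.59 and 22.57 FPKM without it. Its call with AM580 was lost without AM580_48h replicate 1 and without either V580_48h replicate.

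At 48 h minus 24 h, the log2 difference was -1.632 for Ly6a, the gene of the surface antigen Sca-1. Ly6a was at 4.761 and 4.59 FPKM in AM580_24h and 17.03 and 18.38 FPKM in V580_24h, and below 1 FPKM in all 4 libraries of AM580_48h and V580_48h. Rnf125, a ubiquitin ligase, gave -1.415 and was at 1.144 and 1.382 FPKM against 6.5 and 6.609 FPKM at 24 h. The differences were -1.206 for Bnip3, -1.186 for Col2a1, -1.105 for Slc2a1, -1.088 for Krt8 and -1.019 for Krt18. Col2a1 was at 2.557 and 2.539 FPKM against 2.704 and 2.619 FPKM at 24 h, and at 13.22 and 12.78 FPKM against 5.328 and 5.371 FPKM at 48 h. Positive differences were those of Lefty1 (1.279), Hoxb4 (1.178) and Hoxb8 (1.029). Lefty1 fell at both times, from 10.03 and 9.439 FPKM to 2.206 and 2.011 FPKM at 24 h.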

How the results depend on the processing

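The count of 2046 genes called with Vc on top of AM580 was 1548 with a filter of 5 FPKM and 2334 with only the 8 libraries of 48 h, the lowest and highest of the settings that keep all replicates and set no fold threshold. Limma-voom on the recovered fragments, chosen after seeing the data, called 2092, of which 1886 were among the 2046. Without 1 library the count was 1129 to 1380 (438 to 590 higher, 691 to 790 lower). Without 1 library, Vc alone at 48 h gave 583 to 720 genes, the addition at 24 h 792 to 896, the difference with AM580 210 to 300.0 and the difference between times 355 to 438. The lone library left in a group was taken to vary like the others.

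At 2-fold the main count was 28 (3 higher, 25 lower), with adjusted and with unadjusted p alike. It was 5 for Vc alone, 7 at 24 h and 344 for AM580 alone against Con_48h under either p, 13 with adjusted and 15 with unadjusted p for the difference with AM580, and 16 and 17 for that between times. Genes called higher made up 44.3% of calls, and 38.8 to 46.4% over the settings.

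Among genes not called, signs turned when 1 library was left out. Pou5f1 ranged from -0.06229 to 0.03529 on the log2 scale, Tet3 from -0.01078 to 0.04328, Rarg from -0.1007 to 0.02512 and Ly6a from -0.0308 to 0.2058, and the cause was not tested. No called gene that the rule for named genes picked turned its sign in these settings. Over named genes and settings, 1606 values kept their side of the threshold, 77 lost it and 2 gained it.

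Replicate numbers were not shown to mark a shared culture or day, though Gapdh split by replicate number in both groups. Deviations of same-numbered V580_48h and AM580_48h libraries correlated at 0.0917, within the range of -0.424 to 0.209 over 28 pairs of groups. With the replicate number as a block, 1976 genes were called, 1934 of them among the 2046, and among the genes of the naming rule Tubb3 and Mmp2 lost their calls. In the lists, the block took the rises of Hox genes from 8 to 7, of gonadal genes from 2 to 1 and of stress genes from 2 to 1, and the falls among Vc transporters and hydroxylases from 8 to 7, neural genes from 2 to 1 and fibroblast genes from 2 to 1.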

Other observations

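Genes that answer to oxidative stress were called in both directions, 5 higher (all genes, 8.51%) and 2 lower (10.7%) of 12 tested. Their median log2 fold change was 0.0694, or 0.0384 without AM580_48h replicate 1, against 0.00165 over all genes. Nqo1, a quinone reductase, went from 85.19 and 87.95 FPKM in AM580_48h to 123.3 and 114.6 FPKM in V580_48h (log2 fold change 0.45, SE 0.0668, limma adjusted p = 0.000277). Srxn1, which repairs peroxiredoxins, went from 49.91 and 53.21 FPKM to 69.72 and 63.92 FPKM, and Txnrd1, thioredoxin reductase, from 227.0 and 233.0 FPKM to 275.6 and 262.4 FPKM. Hmox1, heme oxygenase, fell from 91.32 and 94.13 FPKM to 80.29 and 78.12 FPKM. Its call and that of the other fall were lost without replicate 2 of either group. The count of 5 was 3 without AM580_48h replicate 1 and 3 without V580_48h replicate 1. Of 11 genes of the unfolded protein and amino acid responses, 2 were called higher (all genes, 8.51%) and 3 lower (10.7%). The calls of the rises were lost whichever library was left out. The median was -0.0292, and 0.00812 without V580_48h replicate 2. Hspa5, the chaperone BiP, fell from 340.7 and 336.6 FPKM to 281.6 and 292.9 FPKM.

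Collagens went both ways, 5 higher (all genes, 8.51%) and 5 lower (10.7%) of 20 tested. Their median log2 fold change was 0.0171, from -0.0218 without AM580_48h replicate 2 to 0.0611 without AM580_48h replicate 1. Col18a1 fell from 181.5 and 180.1 FPKM to 133.1 and 132.5 FPKM, and the fibrillar Col1a2 rose from 5.344 and 4.748 FPKM to 7.133 and 6.357 FPKM. Fibrillar collagens are also markers of feeder fibroblasts, whose summed level was higher in V580_48h, and their part was not tested. The count of rises was 3 without AM580_48h replicate 2 and 3 without V580_48h replicate 1. Col13a1 passed the filter through the V580_48h libraries alone. Of 9 Wnt target genes Bambi, Dkk1 and Lef1 fell (all genes, 10.7%) and 0 rose, at a median of -0.0736, from -0.112 without AM580_48h replicate 1 to -0.0378 without AM580_48h replicate 2. Among markers of other cell types, 1 of 3 mesoderm genes fell (Eomes) and of 3 neural genes 2 fell (Pax6 and Tubb3). Of 5 endothelial genes Pecam1 rose and Flt1 and Tek fell. Over all genes, 10.7% were called lower and 8.51% higher. The single erythroid gene tested, Epor, was not called. Pax6 passed the filter through the AM580_48h libraries alone, at 1.171 and 1.092 FPKM against 0.4532 and 0.4213 FPKM. The calls of Bambi, Dkk1, Lef1, Eomes, Tubb3 and Tek were each lost without at least 1 of the 4 libraries, that of Dkk1 whichever library was left out.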
